A study of Mus musculus with 6 samples.

Results

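The smooth muscle contractile genes were followed in 6 RNA-seq libraries of mouse embryonic stem cells (mESCs). The group held 9 genes of the 55385 in the count table: Acta2, Actg2, Tagln, Cnn1, Myl9, Tpm1, Tpm2, Cald1 and Myh11. They were chosen by gene class, as actin, calponin, tropomyosin and myosin genes driven by serum response factor, and the class was picked from earlier results of the same 6 libraries, in which mesenchymal genes were lower after the deletion. Their levels are therefore described here in every comparison without a test. All 9 passed the filter of at least 10 counts in at least 2 libraries, as did 16951 genes in all.

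There were 2 libraries each of wild-type mESCs, mESCs with a heterozygous Wnt6 deletion (1 deleted allele) and mESCs with a homozygous Wnt6 deletion (2 deleted alleles). The comparison asks how gene expression changes when an anchor region at Wnt6, a site of long-range Polycomb contacts, is removed. The parental line was the hybrid G4, the deletion was made with CRISPR-Cas9 in individually picked clones, and all 6 cultures received Knockout DMEM with LIF and stood on CD1 feeder cells. How many clones stand behind each genotype, and whether feeder cells were removed before lysis, is not given in the sources used here. Total counts ran from 23813912 to 28964706 per library, and the biological coefficient of variation was 3.52%. Wnt6 itself, which encodes a secreted Wnt ligand, was counted 11 and 13 times in the wild-type, 6 and 4 times in the heterozygous and 0 and 0 times in the homozygous replicates, and each library matched its label in this respect.

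Smooth muscle contracts when myosin filaments, built from the heavy chain Myh11 and light chains such as Myl9, pull on thin filaments of the actins Acta2 and Actg2. Tropomyosins (Tpm1, Tpm2) lie along these thin filaments, and caldesmon (Cald1), calponin (Cnn1) and transgelin (Tagln) bind them. Serum response factor (SRF) turns on many of these genes by binding CArG boxes (CC, then 6 bases of A or T, then GG) together with myocardin-family cofactors. In fibroblasts part of the same program is active, most visibly Acta2, the classical myofibroblast gene, while Myh11 is the member most restricted to smooth muscle. Tpm1, Tpm2, Cald1 and Myl9 also have forms or roles in many cells that are not muscle.

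The CArG boxes of the promoters are shown because SRF, the factor named in the choice of the class, binds them. RefSeq promoters (GRCm38.p6, 250 bases before to 50 after the start) were given for 6 members with 7 entries, and the box was searched on both strands. Capitals mark the box, in its strand of transcription, and 10 bases flank it on each side.
Myl9, chr2:156775293-156775322, plus strand, box at -161 from the start: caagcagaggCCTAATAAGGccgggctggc
Myl9, chr2:156775355-156775384, plus strand, box at -99: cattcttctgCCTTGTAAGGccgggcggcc
Acta2, chr19:34255438-34255467, minus strand, box at -84: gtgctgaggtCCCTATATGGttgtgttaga
Acta2, chr19:34255388-34255417, minus strand, box at -34: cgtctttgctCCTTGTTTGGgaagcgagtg
Tpm1, chr9:67049415-67049444, minus strand, box at -221: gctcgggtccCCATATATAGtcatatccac
Tpm1, chr9:67049274-67049303, minus strand, box at -80: acaagcttttCCAAAAAAGTattggctgtc
Cald1, chr6:34598291-34598320, plus strand, box at -203: acggtttcaaGCTTTTTAGGacttggtttt

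The first Myl9 box matched the CArG form exactly, and the other 6 boxes departed from it at 1 of their 10 positions. An exact box was in 1 of the 7 entries (14.3%) and in 1.63% of 32851 promoters. With at most 1 departure, a box was in 4 of 7 entries (57.1%) and in 21.1% of all promoters, and at least 2 such boxes were in 3 of 7 (42.9%) and in 3.7%. The motif TATAAA, searched for comparison, was in 1 of 7 entries and in 13.6% of all promoters. The segments shown for both Acta2 boxes and for the second Tpm1 box overlapped an annotated exon of the same gene in GENCODE. The entries of Tpm2 and Cnn1 and 1 of the Cald1 entries held no match in this window. Actg2, Tagln and Myh11 had no entry. A match is a string of letters, and binding was not measured.

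Levels are given as CPM, the share of a library's counts on the usual scale, with library sizes corrected by TMM normalization factors. Rankings stated in CPM are not corrected for exon length, and otherwise genes are compared with each other as CPM per kilobase of exon. On that scale Acta2 stood first in wild-type mESCs at 114 ± 4.28 CPM per kb (SD, n = 2), followed by Tpm1 at 98.5 ± 0.936, Myl9 at 80.5 ± 2.21 and Tpm2 at 47.8 ± 2.36. Cald1 (25.9 ± 0.02), Cnn1 (18.6 ± 0.148) and Tagln (14.3 ± 0.563) formed the middle of the order. Actg2 (3.82 ± 0.543) and Myh11 (0.473 ± 0.00951), the 2 members most tied to smooth muscle itself, stood last, also among all genes with counts, where Myh11 was at percentile 60.2 of CPM and Tpm1 at 99.4. No neighbours in the order had overlapping libraries, in any genotype. In heterozygous libraries Tpm1 stood first at 116 ± 1.41 CPM per kb, ahead of Acta2 at 80.8 ± 1.47. In homozygous libraries Tpm1 was at 101 ± 1.94, Myl9 at 59.5 ± 3.87 and Acta2 at 51.6 ± 1.59. The remaining 6 members kept their places in all 3 genotypes. Exon lengths pool all annotated transcripts (16 coding transcripts for Tpm1 and 10 for Cald1), so a gene used in a short form is placed too low, and muscle and non-muscle forms are counted as 1.

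Against wild-type, homozygous libraries had lower levels of all members but Tpm1, and 3 members, Actg2, Myh11 and Acta2, were more than 2-fold lower. Heterozygous libraries lay without overlap below wild-type for 4 members and above it for 4, against 24.0% and 23.7% of all genes tested. Of the 4 above, Tagln (0.06 ± 0.0685 on the log2 scale) and Cnn1 (0.08 ± 0.0578) were near wild-type. The next paragraphs give the members by these patterns and by their role.

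**Figure D1:**
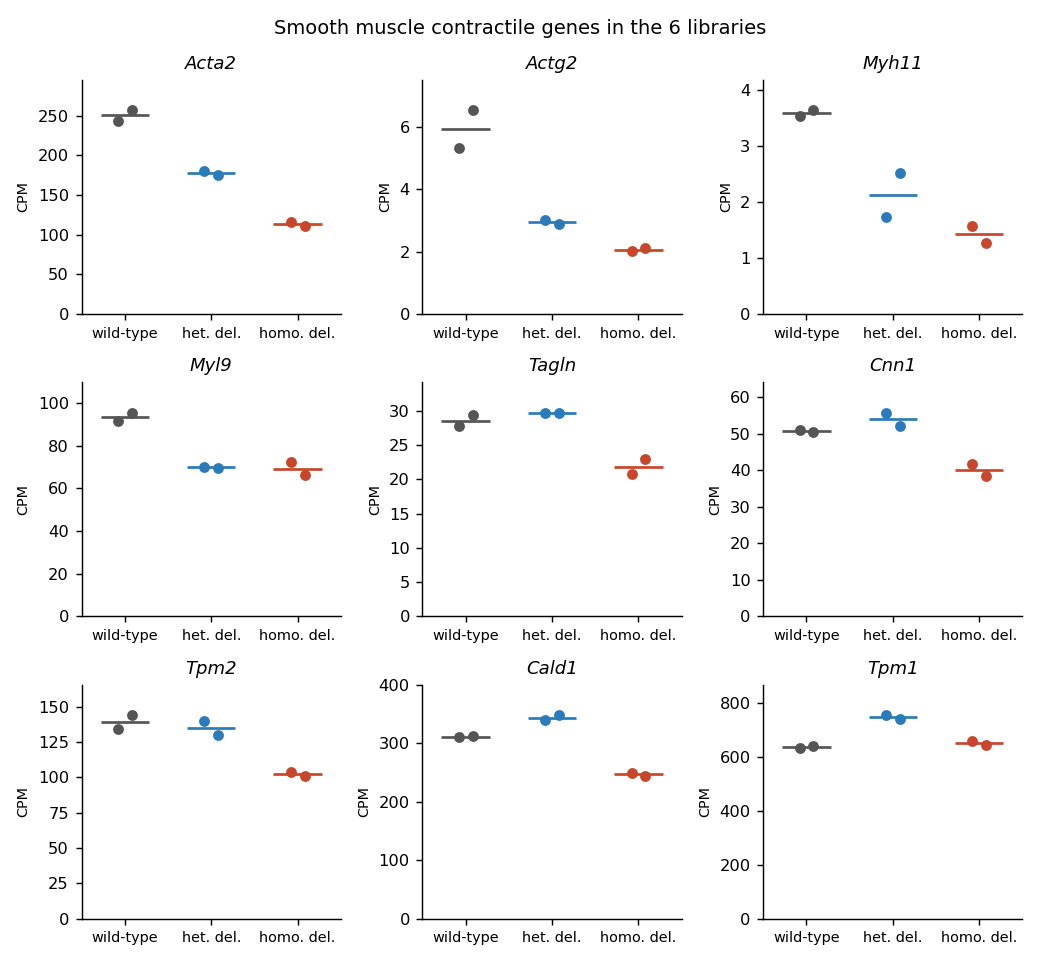
CPM (vertical axes, starting at 0) of each contractile gene in wild-type, heterozygous and homozygous Wnt6 deletion libraries. Points are single libraries and bars are the means of 2. Acta2, Actg2 and Myh11 step down from wild-type to heterozygous to homozygous, Myl9 is lower by a like amount in both deletions, and Tpm1 and Cald1 are highest in the heterozygous libraries.

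Acta2, the smooth muscle alpha-actin, had wild-type values of 244 and 257 CPM, heterozygous values of 180 and 175 CPM and homozygous values of 116 and 111 CPM. The 3 genotypes did not overlap, and the level was lowest with 2 deleted alleles. Relative to wild-type, the log2 fold change was -0.50 ± 0.0443 (SE of the fit) with 1 deleted allele and -1.15 ± 0.0457 with 2, the latter being 2.21-fold lower. Between the deletions it was -0.65 ± 0.0462.

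Actg2, the gamma-actin of enteric smooth muscle, was far lower in level, with wild-type values of 5.34 and 6.54 CPM, heterozygous values of 3.01 and 2.89 CPM and homozygous values of 2.01 and 2.11 CPM. Here too no genotypes overlapped. Its log2 fold changes from wild-type were -1.0 ± 0.155 and -1.52 ± 0.168, and the latter (2.86-fold lower) had the largest size among the members. The value in the heterozygous deletion ran from -1.15 to -0.85 when wild-type replicate 1 or 2 was left out. Between the deletions it was -0.52 ± 0.193. The gene had 46 to 167 counts per library.

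Myh11, the smooth muscle myosin heavy chain, had wild-type values of 3.54 and 3.64 CPM, heterozygous values of 1.73 and 2.52 CPM and homozygous values of 1.57 and 1.27 CPM. All 3 genotypes were apart, though the heterozygous libraries differed from each other by more than the lower of them differed from the homozygous ones. The log2 fold changes from wild-type were -0.75 ± 0.195 and -1.34 ± 0.215, the latter 2.54-fold lower. Without heterozygous replicate 1 or 2 the first was -0.51 or -1.05. The value between the deletions, -0.59 ± 0.24, became -0.83 or -0.29. With 33 to 104 counts per library Myh11 was the member with the least depth.

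Myl9, the regulatory light chain of smooth muscle myosin, had wild-type values of 91.7 and 95.4 CPM, heterozygous values of 69.8 and 69.7 CPM and homozygous values of 72.3 and 66.0 CPM. Both deletions lay below wild-type and overlapped each other. The log2 fold changes from wild-type were nearly equal, -0.42 ± 0.0521 and -0.44 ± 0.0524. Between the deletions it was -0.01 ± 0.0537, and 0.05 without homozygous replicate 2, so that no direction can be given.

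Tagln (transgelin, or SM22-alpha), Cnn1 and Tpm2 shared another pattern: they were near wild-type in the heterozygous and lower in the homozygous libraries. Tagln had wild-type values of 27.7 and 29.3 CPM, heterozygous values of 29.7 and 29.6 CPM and homozygous values of 20.7 and 22.9 CPM. Its homozygous libraries lay below the other 4, with a log2 fold change from wild-type of -0.38 ± 0.0718 against 0.06 ± 0.0685 in the heterozygous deletion. Of its exon length, 62.4% overlaps the antisense gene Gm48529, which had 21 to 65 counts per library against 474 to 813 for Tagln. The kit marks strand, but the strand setting of the counting is not given in the sources used here. How far the overlap alters the level of Tagln, its place in the order of members or its family share was not tested.

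Cnn1, calponin 1, had wild-type values of 51.1 and 50.5 CPM, heterozygous values of 55.7 and 52.1 CPM and homozygous values of 41.6 and 38.4 CPM. Relative to wild-type, its log2 fold change was 0.08 ± 0.0578 with 1 deleted allele and -0.35 ± 0.0599 with 2. Tpm2, beta-tropomyosin, had wild-type values of 134 and 144 CPM, heterozygous values of 140 and 130 CPM and homozygous values of 104 and 101 CPM. Its wild-type and heterozygous libraries overlapped (-0.05 ± 0.0495 on the log2 scale, and 0.01 without wild-type replicate 2 or heterozygous replicate 2), and it was the only member that overlapped in that comparison. The homozygous libraries stood below both, at -0.44 ± 0.0505 from wild-type.

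Cald1 and Tpm1, the members with the highest CPM, were highest in the heterozygous libraries. Cald1, caldesmon, had wild-type values of 311 and 312 CPM, heterozygous values of 340 and 348 CPM and homozygous values of 250 and 244 CPM. Its log2 fold change from wild-type was 0.14 ± 0.0404 with 1 deleted allele and -0.34 ± 0.0408 with 2, and it was -0.48 ± 0.0408 between the deletions. The sign thus differed between the deletions, with no overlap of any genotypes.

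Tpm1, alpha-tropomyosin, had wild-type values of 635 and 643 CPM, heterozygous values of 756 and 743 CPM and homozygous values of 662 and 645 CPM. The heterozygous libraries stood apart above the other 4, at 0.23 ± 0.0388 from wild-type on the log2 scale. The homozygous value was 0.03 ± 0.0389, less than its error, and turned to -0.02 when libraries were scaled by total counts alone. Between the deletions it was -0.20 ± 0.0389.

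**Figure D2:**
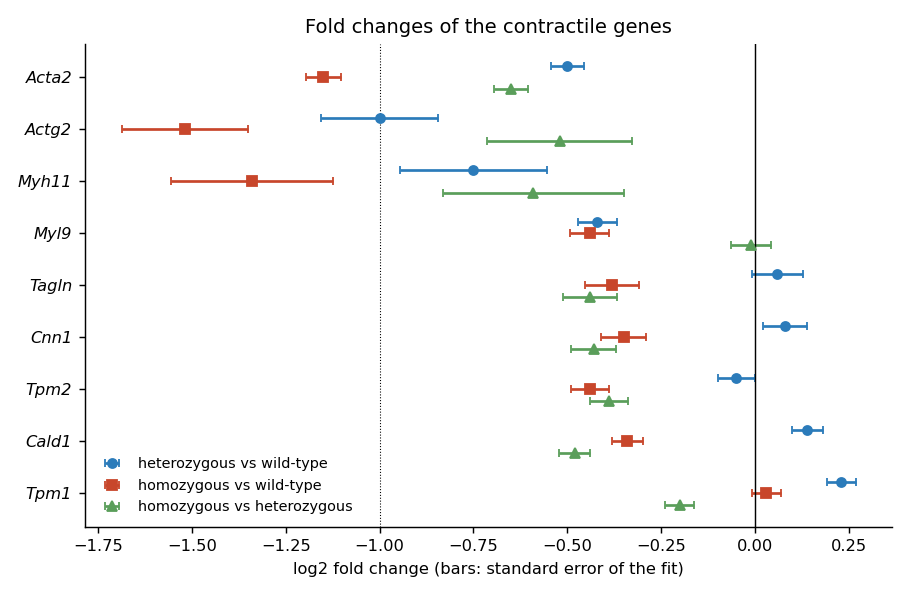
Log2 fold changes (horizontal axis) of the 9 members in the 3 comparisons, with standard errors of the fit as bars; the dotted line marks a 2-fold decrease. In the homozygous deletion 8 members lie left of 0, between -1.52 and -0.34, and Tpm1 lies at 0.03, a value that is -0.02 when libraries are scaled by total counts alone.

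Counted over the group, homozygous libraries did not overlap wild-type ones for any member, with 8 below and 1 above. Among all genes tested, 29.4% lay below and 28.4% above without overlap. The median log2 fold change was -0.44 for the members and -0.01 for all genes tested. Since the members were selected on these libraries, nothing is read from these counts, here or in the other 2 comparisons, and no calls are given for them. Over all genes tested, the background for the other lists, the edgeR quasi-likelihood fit with Benjamini-Hochberg adjustment called 10.5% lower and 10.9% higher, and 1.86% lower by over 2-fold. Scaling by total counts alone turned the calls over all genes from 1786 lower and 1846 higher to 2525 lower and 1183 higher, and the members' median to -0.49. DESeq2 called 974 lower and 1291 higher.

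Heterozygous libraries lay below wild-type for Acta2, Actg2, Myl9 and Myh11 and above it for Tagln, Cnn1, Tpm1 and Cald1. The background without overlap was 24.0% below and 23.7% above. The same edgeR fit called 2.91% of all genes lower, 2.23% higher and 0.124% lower by over 2-fold. The median was -0.05 for the members and 0.00 for all genes tested. It ran from -0.10 to 0.01 as single libraries were left out, turning sign without wild-type replicate 2 or heterozygous replicate 2.

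Homozygous libraries lay below heterozygous ones for 8 members and overlapped for Myl9. The background was 32.8% below and 28.6% above without overlap. Of all genes, the edgeR fit called 12.9% lower, 12.9% higher and 0.897% lower by over 2-fold. The median was -0.44, against -0.02 for all genes tested. These 3 comparisons share libraries and are not independent of each other.

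Summed, the 9 members reached wild-type totals of 1504 and 1542 CPM, heterozygous totals of 1576 and 1553 CPM and homozygous totals of 1271 and 1231 CPM. The sum is carried by Tpm1, Cald1 and Acta2. In it the higher Tpm1 and Cald1 of the heterozygous libraries outweighed the lower Acta2, and the homozygous libraries lay below wild-type.

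Each contractile protein belongs to a family whose other members serve the cytoskeleton of all cells or striated muscle. The share of a member within its family, on the scale of CPM per kb, does not depend on the scaling of the libraries. Acta2 made up 5.96% ± 0.108 (SD, n = 2) of the summed level of 6 actin genes in wild-type, 4.1% ± 0.0158 in heterozygous and 2.73% ± 0.0575 in homozygous libraries. Actg2 went from 0.199% ± 0.0245 to 0.0963% ± 0.00141 and 0.0701% ± 0.00615. The bulk of actin was Actb, with means from 66.2% to 66.9% in the 3 genotypes, while Actg1, the other cytoplasmic actin, made up 26.0% ± 0.232, 28.3% ± 0.185 and 29.9% ± 0.104.

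Among 4 myosin heavy chains, Myh11 took 0.653% ± 0.0368 in wild-type, 0.374% ± 0.105 in heterozygous and 0.259% ± 0.037 in homozygous libraries. Non-muscle Myh9 made up most of the family at 68.9%, 69.6% and 61.9%, and Myh10 went from 28.3% in wild-type to 35.7% in the homozygous libraries. Myl9 was the leading regulatory light chain of 3 in wild-type at 57.8% ± 0.106. It was level with Myl12a in the heterozygous libraries (48.3% ± 0.292 and 48.5% ± 0.192) and at 50.3% ± 0.896 in the homozygous ones.

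Tpm2 held 14.8% ± 0.513 of the 4 tropomyosins in wild-type, 13.5% ± 0.639 in heterozygous and 9.81% ± 0.0269 in homozygous libraries. Tpm1 held 30.5% ± 0.16, 33.6% ± 0.232 and 28% ± 0.0481, while its CPM in the homozygous libraries was close to wild-type. Tpm4, on chromosome 8, held 37.4% ± 0.0221, 35.8% ± 0.84 and 45.1% ± 0.126 of the same family, and the shares of Tpm1 and Tpm2 move with it. Cnn1 went from 8.26% ± 0.149 of the 3 calponins in wild-type to 8.15% ± 0.173 and 6.38% ± 0.164, and Tagln from 11% ± 0.156 of the 3 transgelins to 10.2% ± 0.0296 and 8.34% ± 0.804. Cald1 was without a family here.

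**Figure D3:**
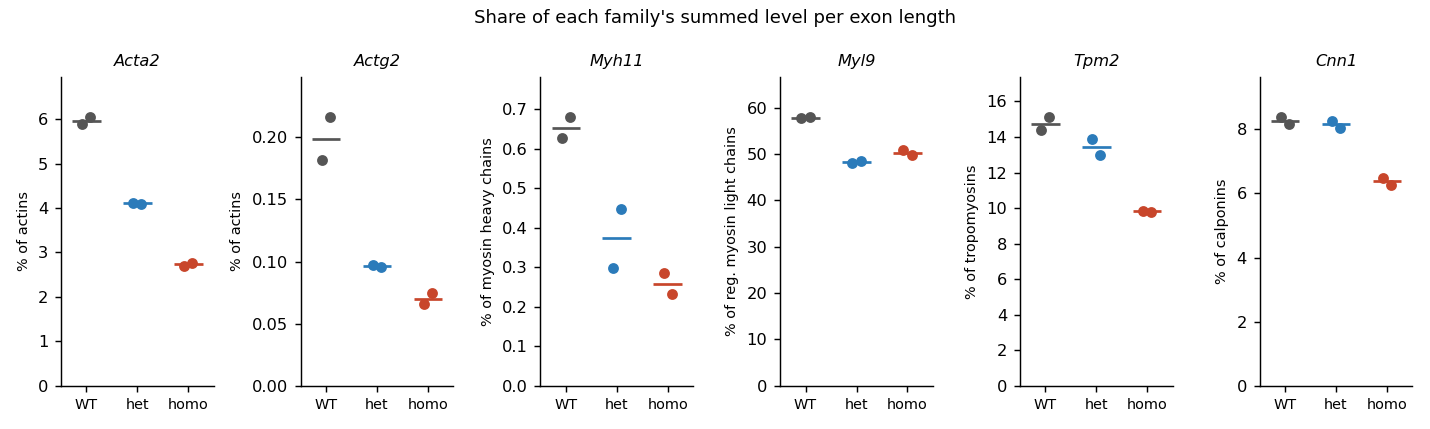
Share (%, vertical axes starting at 0) of 6 members in the summed CPM per kb of their gene family, in wild-type (WT), heterozygous (het) and homozygous (homo) libraries; points are libraries and bars are means. Acta2 steps down from 5.96% to 4.1% and 2.73%, whereas Myl9 is near 50% in both deletions and Tpm2 and Cnn1 are lower mainly in the homozygous libraries.

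The 17 paralogues of these families showed, in the homozygous deletion, 1 lower and 5 higher gene by edgeR (quasi-likelihood, Benjamini-Hochberg over all genes) and a median of 0.12 on the log2 scale. Tpm4, a non-muscle tropomyosin, rose by 0.43 ± 0.0413 (adjusted p = 2.05e-07), Myh10 by 0.33 ± 0.0411 (adjusted p = 5.31e-06) and Actg1 by 0.19 ± 0.0404 (adjusted p = 0.00198). Cnn3 rose by 0.19 ± 0.0414 (adjusted p = 0.00245) and Tpm3 was at 0.12 ± 0.0397 (adjusted p = 0.0314). Myh9 was the 1 that fell, at -0.16 ± 0.0421 (adjusted p = 0.00917). The calls of Cnn3 and Myh9 were lost without wild-type replicate 1, at 0.16 and -0.12, and that of Tpm3 without either wild-type replicate (0.13 in both cases) or homozygous replicate 1 (0.12). Actb was at -0.03 (adjusted p = 0.65). Tpm4 lies on chromosome 8, whose 890 tested genes had a median of 0.39 in the same comparison, while no other autosome, nor X, had a median outside -0.048 to 0.016. No member lies on chromosome 8. In the heterozygous deletion 0 paralogues were lower and 3 higher (Acta1, Actg1, Tagln2), and Actg1 and Tagln2 lost their calls when any wild-type or heterozygous library was left out.

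The contractile partners were 20 genes of the same apparatus: regulators of myosin, dense body and actin-binding proteins, and a channel subunit. In the homozygous deletion 2 were lower and 2 higher, with a median of -0.07. Lmod1, which nucleates actin filaments in smooth muscle, had wild-type values of 5.38 and 5.64 CPM, heterozygous values of 4.38 and 5.45 CPM and homozygous values of 3.45 and 2.84 CPM, and fell by 0.81 on the log2 scale (adjusted p = 0.000752, edgeR). Kcnmb1, the beta subunit of the smooth muscle BK channel, was at -1.55 ± 0.462 (adjusted p = 0.0204, edgeR) but under 1 CPM everywhere. Its call was lost in DESeq2 and without wild-type replicate 1 (-1.58), wild-type replicate 2 (-1.52) or homozygous replicate 1 (-1.22).

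Synpo2, an actin-bundling protein of smooth and striated muscle, rose by 0.52 ± 0.113 (adjusted p = 0.00198, edgeR). Ppp1r12a, the targeting subunit of myosin phosphatase, was at 0.15 (adjusted p = 0.0188, edgeR), a call lost without either wild-type replicate (0.15 in both cases) or homozygous replicate 2 (0.13). The 2 partners with the highest CPM, the actin crosslinkers Flna and Actn1, were at 0.06 (adjusted p = 0.31) and -0.06 (adjusted p = 0.315) in the edgeR test. Against the heterozygous deletion, 6 partners were lower in the homozygous one (Smtn, Lmod1, Csrp1, Actn1, Pdlim7, Kcnmb1) and Synpo2 was higher. Csrp1 and Actn1 held their calls whichever library was left out. The calls of Smtn, Pdlim7, Kcnmb1 and Synpo2 were lost without heterozygous replicate 1, those of Lmod1 and Synpo2 without heterozygous replicate 2, that of Kcnmb1 without homozygous replicate 1 and that of Synpo2 without homozygous replicate 2. Smtn and Csrp1 were also the 2 partners higher in heterozygous than in wild-type libraries, at 0.38 (adjusted p = 0.00092, edgeR) and 0.33 (adjusted p = 0.000364, edgeR).

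Srf, the transcription factor of the class, had wild-type values of 91.0 and 87.0 CPM, heterozygous values of 88.6 and 77.2 CPM and homozygous values of 85.4 and 79.5 CPM. Its homozygous log2 fold change of -0.11 ± 0.0595 did not pass the threshold (adjusted p = 0.204, edgeR). Myocd, the smooth muscle cofactor myocardin, had 9 to 17 counts per library, too few to resolve a difference (0.40 ± 0.467, adjusted p = 0.601, edgeR), and its value was -0.20 without homozygous replicate 1. Among the 12 tested genes listed for SRF and its cofactors, 4 were lower and 0 higher in the homozygous deletion (edgeR, Benjamini-Hochberg), with a median of -0.08. Elk3, an ETS partner of SRF, fell by 0.59 on the log2 scale (adjusted p = 6.98e-05), and Fhl2, a cofactor of SRF, by 0.52 (adjusted p = 0.000298). Elk4 (-0.28, adjusted p = 0.043) and the myocardin-related factor Mrtfa (-0.25, adjusted p = 0.0154) lost their calls in DESeq2 and without single libraries. Elk4 lost it without wild-type replicate 1 (-0.24), wild-type replicate 2 (-0.30) or homozygous replicate 1 (-0.15). Mrtfa lost it without wild-type replicate 1 (-0.27), wild-type replicate 2 (-0.22) or homozygous replicate 2 (-0.21). Rhoa and Rock2, the highest of the list in CPM, were at 0.05 (adjusted p = 0.443) and -0.05 (adjusted p = 0.505). Both signs turned under an alternative: Rhoa was at -0.00 with total counts and Rock2 at 0.01 without homozygous replicate 1. Abra had at most 3 counts in every library.

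Of 13 SRF early genes, which respond to SRF with ETS factors or to actin dynamics, 5 were lower and 2 higher in the homozygous deletion (edgeR, Benjamini-Hochberg), with a median of -0.16. Ccn2, a matricellular protein, had wild-type values of 311 and 321 CPM, heterozygous values of 250 and 255 CPM and homozygous values of 195 and 197 CPM, and fell by 0.69 on the log2 scale (adjusted p = 2.82e-10). Egr2 fell by 0.84 (adjusted p = 0.000282). Egr3 (-0.51, adjusted p = 0.043) lost its call when any library but homozygous replicate 2 was left out, with values from -0.53 to -0.32, in DESeq2 (-0.51) and when the 4 libraries compared were fitted alone (-0.51). The 2 higher genes, Ier2 (0.37, adjusted p = 0.000395) and Junb (0.36, adjusted p = 0.0124), both lie on chromosome 8. Junb lost its call in DESeq2 (0.37) and without wild-type replicate 2 (0.29) or homozygous replicate 1 (0.27). In the heterozygous deletion 3 of the list were lower and 1 higher (2.91% and 2.23% of all genes), with a median of -0.05. The higher gene was Ccn1, at 0.21 (adjusted p = 0.00386, edgeR), which was lower in the homozygous deletion, at -0.26 (adjusted p = 0.000105, edgeR). Mcl1, the highest of the list in CPM, was at -0.01 in the homozygous deletion (adjusted p = 0.906, edgeR).

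Of 10 genes of the TGF-beta pathway, a known inducer of Acta2 in fibroblasts, 4 were lower and 1 higher in the homozygous deletion (edgeR, Benjamini-Hochberg), with a median of -0.22. The ligand Tgfb3 had wild-type values of 10.4 and 10.3 CPM, heterozygous values of 6.03 and 6.39 CPM and homozygous values of 4.06 and 3.54 CPM. It fell by 0.73 on the log2 scale with 1 deleted allele (adjusted p = 0.000242) and by 1.45 with 2 (adjusted p = 2.69e-08). In the heterozygous deletion 1 of the 10 was lower (2.91% of all genes) and 1 higher (2.23%), with a median of -0.0. The higher gene was another ligand, Tgfb2, at 0.39 ± 0.102 (adjusted p = 0.0266, edgeR). Tgfb1 fell by 0.59 in the homozygous deletion (adjusted p = 0.000294). The receptor Tgfbr2 was at -0.34 (adjusted p = 0.0242) and the inhibitor Smad7 at -0.22 (adjusted p = 0.00636). Tgfbr2 lost its call in DESeq2 (-0.33) and without wild-type replicate 1 (-0.29), wild-type replicate 2 (-0.37) or homozygous replicate 2 (-0.23), and Smad7 without wild-type replicate 1 (-0.19). Smad4, the common mediator, rose by 0.21 (adjusted p = 0.00306). Smad2, next to Smad4 in CPM, was at 0.11 (adjusted p = 0.148, edgeR).

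Markers of fibroblasts, a cell type the cultures could hold because mESCs were kept on feeders, were mostly lower in both deletions. Like the members, they belong to the mesenchymal genes whose lower level in these libraries was known beforehand, so their values are a description and carry no test. Of 25 tested fibroblast genes out of 26, 22 had a log2 fold change below 0 in the heterozygous deletion, with a median of -0.47. Among all 16951 genes tested, 8475 were below 0 in that comparison. In the homozygous deletion 24 of the fibroblast genes were below 0, with a median of -1.07, against 8669 of all genes tested. Nothing is read from these counts. Their summed level was 4330 to 4386 CPM in wild-type, 3357 to 3373 in heterozygous and 2503 to 2515 in homozygous libraries. Lum, a defining gene of the list, had 2 to 5 counts per library and stayed under the filter. Thy1, a surface marker of fibroblasts, had wild-type values of 22.7 and 25.1 CPM, heterozygous values of 15.6 and 15.9 CPM and homozygous values of 9.08 and 8.99 CPM. In the homozygous deletion Lox, a collagen crosslinking enzyme, had a log2 fold change of -1.37, Col6a1 of -1.33, Pdgfrb of -1.30 and Prrx1 of -1.29. The 2 highest in CPM, Fn1 and Sparc, were at -0.62 and -0.28.

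Set beside these medians, Acta2 (-0.50 and -1.15), Actg2 (-1.0 and -1.52) and Myh11 (-0.75 and -1.34) had values at or beyond those of the fibroblast list in both deletions. Tagln, Cnn1, Tpm2 and Cald1 had homozygous values from -0.44 to -0.34 and heterozygous values from -0.05 to 0.14. Myl9 was at -0.42 and -0.44, near the fibroblast median in the heterozygous deletion alone. Tpm1, at 0.23 and 0.03, was farthest from both medians. Thus in the heterozygous deletion the fibroblast median was -0.47 where that of the members was -0.05. The part of fibroblast RNA in the members' levels was not tested. In these bulk libraries fewer cells of a type and less RNA per cell cannot be told apart.

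Of the other cell types, mural cell markers had 3 of 7 genes past the filter and, as mesenchymal genes, are given without a test. In the homozygous deletion Cspg4 (NG2) had a log2 fold change of -1.22, Mcam of -0.31 and Notch3 of 0.09. Higd1b had at most 3 counts in every library, and Rgs5, Abcc9 and Kcnj8 were also under the filter. Of 9 tested striated muscle genes only Ttn passed, with wild-type values of 12.5 and 11.2 CPM, heterozygous values of 11.3 and 12.4 CPM and homozygous values of 28.2 and 19.1 CPM (0.98 ± 0.13, adjusted p = 1.12e-05, edgeR). Myh6 was at 0.12 (adjusted p = 0.472, edgeR), and Myod1 and Myog were under the filter.

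Pluripotency genes, which mark the mESCs themselves, were high throughout, with Pou5f1 between 876 and 1065 CPM. Their summed level was 3949 to 4054 CPM in wild-type, 3720 to 3751 in heterozygous and 3960 to 4161 in homozygous libraries. In the homozygous deletion 1 of 10 was lower (Klf4, -0.19, adjusted p = 0.0456) and 1 higher (Zfp42, 0.22, adjusted p = 0.00114, on chromosome 8), with a median of -0.00. The Klf4 call was lost in DESeq2 (-0.19) and when any wild-type or homozygous library was left out, at -0.21 to -0.17. Pou5f1 and Lin28a, the highest of the list in mean CPM, were at 0.05 (adjusted p = 0.445) and -0.02 (adjusted p = 0.807) in the same edgeR comparison. In the heterozygous deletion 6 were lower and 0 higher (2.91% and 2.23% of all genes), with a median of -0.19. The weakest of these calls were Klf4 (adjusted p = 0.0281) and Utf1 (adjusted p = 0.0263, both edgeR). Zfp42 was also among the 6, and the 890 tested genes of its chromosome 8 had a median of -0.12 in that comparison. On the endoderm and epithelium list 3 of 6 genes passed the filter, and Sox17, Afp and Foxa2 stayed under it. The simple-epithelium keratins Krt8 and Krt18 rose in the heterozygous deletion, by 0.75 (adjusted p = 9.11e-09) and 0.78 (adjusted p = 1.35e-09, edgeR). In the homozygous one they rose by 0.41 (adjusted p = 2.62e-06) and 0.30 (adjusted p = 3.27e-05, edgeR). Between the deletions they were at -0.34 and -0.48. Gata6 was at 0.91 (adjusted p = 0.126, edgeR) in the heterozygous and -0.12 (adjusted p = 0.87, edgeR) in the homozygous deletion. Pecam1, on the endothelial list and also made by mESCs, was at 0.26 in the homozygous deletion (adjusted p = 0.00202, edgeR). That call was lost without wild-type replicate 1 (0.21). Tek, on the same list, was at -0.01 in the homozygous deletion (adjusted p = 0.939, edgeR).

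**Figure D4:**
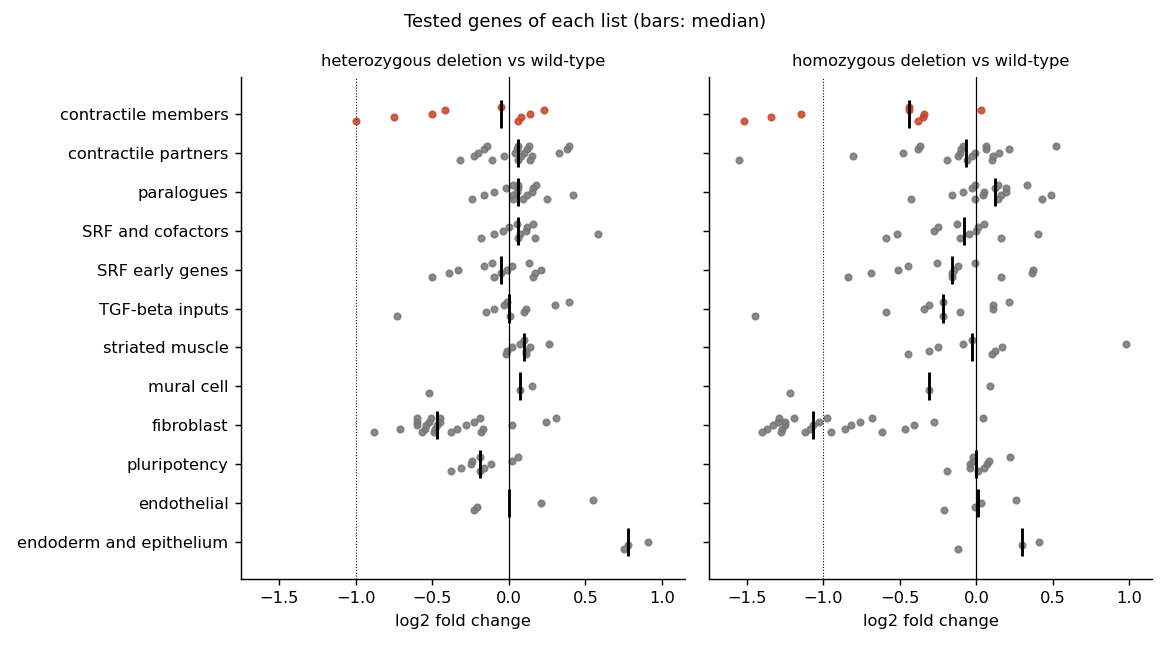
Log2 fold change (horizontal axes) from wild-type of every tested gene of the members and 11 other lists, in the heterozygous (left) and homozygous (right) deletion; points are genes, bars are medians and dotted lines mark a 2-fold decrease. The members (red) spread from -1.0 to 0.23 and from -1.52 to 0.03, fibroblast genes have medians of -0.47 and -1.07, and partners and paralogues lie around 0.

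The mean profile of the 9 members over the 6 libraries, on the scale of centred log2 CPM, had wild-type values of 0.24 and 0.31, heterozygous values of 0.05 and 0.06 and homozygous values of -0.30 and -0.36. Tpm2 came closest to the mean of the other members (root-mean-square difference 0.101). Actg2 (0.377), Tpm1 (0.303) and Myh11 (0.288) were farthest from it, with Actg2 and Tpm1 at opposite ends of the fold changes. These differences were larger than the median of unrelated genes given next, so the profile is an average that not all members follow. Of 10761 other genes with at least 5 CPM, whose median difference from the profile was 0.266, the nearest were Eml1 (0.031), Xbp1 (0.0328), Pmepa1 (0.0364), Nos1 (0.0373) and Dpysl3 (0.0381). F2r (0.0421), Lpar1 (0.0437), Vasn (0.0438), Antxr1 (0.0438) and Ugdh (0.0457) completed the nearest 10. Their log2 fold changes ran from -0.29 to -0.12 with 1 deleted allele and from -0.71 to -0.51 with 2. F2r is the thrombin receptor and Lpar1 a receptor of lysophosphatidic acid, and Pmepa1 is a TGF-beta target. The likeness is a description over 6 libraries of 3 genotypes.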

How the data were processed

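PolyA RNA of 6 mESC cultures was made into stranded libraries. What the authors deposited are raw, whole-number gene counts (55385 genes); per the submitters' processing notes, Trimmomatic 0.39, STAR 2.6.1d, SAMtools 1.9, featureCounts 1.6.4 and DESeq2 1.22.2 were used with mm10/GRCm38. The role of each tool, the annotation release and the strand setting are not given in the sources used here. The methods state triplicates and the labels give 2 libraries per genotype, so p-values measure only the spread between these libraries, which may be technical.

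Fold changes and standard errors were computed with edgeR 4.0.16 (TMM, quasi-likelihood, 6 libraries in 1 fit, R 4.3.3), for genes reaching 10 counts in 2 or more libraries. P-values were adjusted by Benjamini-Hochberg over 16951 genes at 0.05, and an absolute log2 fold change of 1 marked 2-fold. In a library 3 counts correspond to 0.102 to 0.131 CPM. The members and the gene lists were chosen with earlier results of these data known. The adjusted p-values given for list genes are therefore no independent support. From each other list at most 5 genes past the threshold with the largest homozygous change and the 2 with the highest counts were named. Srf, Myocd, Tpm3 and genes that spell out small counts or the other 2 comparisons were named after their values were seen. The profile comparison used log2(CPM + 0.5). Exon lengths and overlaps came from GENCODE vM21. The fit was tested on simulated data. Alternatives were other scalings, filters and sample sets, a replicate block, DESeq2 1.42.0 and leaving out each library.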

Additional observations from a re-analysis of the deposited data

How the results depend on the processing

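The members' median log2 fold change stayed within the spread between replicates in 32 of its recomputed values and moved beyond it in 7. In the heterozygous deletion it ran from -0.10 to 0.01 as single libraries were left out, around -0.05. Scaling by total counts alone gave -0.49 (homozygous against wild-type) and -0.51 (homozygous against heterozygous) in place of -0.44, and single libraries left out gave -0.47 to -0.38 and -0.47 to -0.43. The number of contractile partners lower in the homozygous deletion, 2, became 6 with total counts alone, 1 with at least 10 counts in all 6 libraries, 1 in DESeq2 and 1 to 3 with single libraries left out. The number of paralogues lower, 1, became 2 with total counts alone and 0 to 1 with single libraries left out. The cause was not tested.

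Of the single-gene fold changes recomputed, 954 kept their direction and side of the threshold or stayed within the replicate spread. Another 24 untested ones moved beyond that spread, 49 lost a call and 1 gained a call. A further 10, all of genes outside the members, changed sign. Sign turns of members close to 0 were counted not there but by whether the value stayed within the replicate spread. Among the members, signs turned for Tpm1 with total counts alone (0.03 to -0.02, homozygous against wild-type), Tpm2 without wild-type or heterozygous replicate 2 (-0.05 to 0.01, heterozygous) and Myl9 without homozygous replicate 2 (-0.01 to 0.05, between the deletions). Of the other genes, with total counts alone Rhoa and Pou5f1 were at -0.00, and with single libraries left out Actb ran from -0.08 to 0.02, Rock2 from -0.11 to 0.01, Mcl1 from -0.04 to 0.03, Pou5f1 from -0.00 to 0.12, Lin28a from -0.05 to 0.03, Tek from -0.09 to 0.07 and Myocd from -0.20 to 0.88. Calls were also lost for Ppp1r12a and Tpm3 with total counts alone, for Tpm3 with only the libraries compared and for Klf4 with DESeq2 size factors or no filter. Calls over all genes in the heterozygous deletion were 493 lower and 378 higher in edgeR and 284 and 198 in DESeq2.

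Replicate numbers did not pair the libraries: deviations of same-numbered libraries correlated at 0.0262, -0.125 and 0.0113. With a replicate block the members' medians stayed at -0.05, -0.44 and -0.44 and the lower partners and paralogues at 2 and 1, and the calls of Elk4, Klf4 and Tpm3 were lost. In a fit of the 4 wild-type and homozygous libraries chosen after seeing the data, crossing the numbers gave 2415 lower and 2436 higher genes, against 1637 and 1432 with the numbers as labeled. With 33 to 104 counts Myh11 was the member most limited by depth.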
